A study of Nannochloropsis gaditana with 4 samples.

Results

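The genes described here are ALAD, POR1 and VCP1, which were chosen by their symbols as the chlorophyll synthesis and antenna genes among the 44 genes measured in *Nannochloropsis gaditana* CCAP 849/5, a single-celled marine alga. All 3 were found, and their genome positions are not used here. Of the 44 genes, 36 were targets and 8 were reference genes. Transcripts were quantified by real-time PCR with SYBR Green in cells of this strain grown as gas-mixed batch cultures for 13 days, either in continuous light (CL, the control) or in flashing light of 5, 50 or 500 Hz, lit for a fraction of 0.05 of each period. All 4 conditions averaged 300 µmol s-1 m-2 over time, with 6000 µmol s-1 m-2 during a flash. Each condition was 1 sample, RNA was pooled before measurement according to the design text, and each gene had 3 numbered repeats per sample. The control column is SAMPLE 1, and the flashing-light columns are SAMPLE 2, SAMPLE 3 and SAMPLE 4. No header ties these columns to a frequency, so none is given below.

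Chlorophyll is built on the tetrapyrrole pathway of the plastid. ALAD, 5-aminolevulinic acid dehydratase, acts early in it and makes porphobilinogen, the pyrrole unit of both haem and chlorophyll. POR1 is a light-dependent NADPH:protochlorophyllide oxidoreductase, which reduces protochlorophyllide to chlorophyllide near the end of chlorophyll synthesis and needs light for its reaction. VCP1 is a violaxanthin-chlorophyll protein, a membrane antenna protein that holds chlorophyll a and the carotenoid violaxanthin and passes absorbed light to the photosystems. In many photosynthetic organisms transcripts of antenna proteins and of chlorophyll synthesis enzymes respond to the light supply.

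All 3 transcripts stood highest in SAMPLE 2, where VCP1 rose 3.05-fold against continuous light, POR1 rose 2.00-fold and ALAD, at 1.54-fold, did not reach the 2-fold limit. In SAMPLE 3 none of them differed from the control beyond the spread of the repeats. In SAMPLE 4 POR1 was at 0.708-fold, short of the 2-fold limit, while VCP1 and ALAD overlapped the control. All POR1 repeats there lay below those of the control, as for 16.7% of targets, but before normalization they overlapped it. A change is the difference of mean log2 normalized quantities, its error is the propagated SD (the repeat SDs of the 2 columns, squared, added and rooted), and a gene passed when it changed at least 2-fold and by more than 2 propagated SDs. With 1 sample per condition there is no test between conditions and no p-value, and the repeats may be technical.

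The normalized quantity of ALAD was 0.655, 0.755 and 0.664 in the control repeats, a mean of 0.691 ± 0.0556 (SD, n = 3). In SAMPLE 2 it was 1.12, 1.02 and 1.05. In SAMPLE 3 it was 0.716, 0.610 and 0.791, and in SAMPLE 4 it was 0.660, 0.552 and 0.653. The SAMPLE 2 repeats lay above all 9 others, and the other columns overlapped each other. Of all targets, 41.7% had SAMPLE 2 wholly above the control. SAMPLE 3 lay wholly below SAMPLE 2 for 38.9% and SAMPLE 4 for 52.8%, and the same shares stand beside POR1 and VCP1 below.

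POR1 was at 0.476, 0.588 and 0.510 in the control, a mean of 0.525 ± 0.0572 (SD, n = 3). The SAMPLE 2 repeats were 1.12, 1.06 and 0.967. Those of SAMPLE 3 were 0.533, 0.419 and 0.876, the widest spread of this gene, and those of SAMPLE 4 were 0.416, 0.326 and 0.375. SAMPLE 2 again lay above every other repeat, and SAMPLE 4 lay below every other repeat, next to the lowest of SAMPLE 3 by a margin of 0.416 against 0.419. Of all targets, 16.7% had SAMPLE 4 wholly below the control and 16.7% wholly below SAMPLE 3.

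VCP1 was at 0.298, 0.480 and 0.335 in the control, a mean of 0.371 ± 0.0959 (SD, n = 3). In SAMPLE 2 the repeats were 1.02, 1.10 and 1.21. They were 0.264, 0.292 and 0.540 in SAMPLE 3 and 0.314, 0.238 and 0.312 in SAMPLE 4. The lowest SAMPLE 2 repeat was thus above the highest of all other columns, 0.540, and those columns overlapped. Each gene is scaled to its own highest value before normalization, so levels cannot be compared between genes. The identical 1.12 of ALAD and POR1 in repeat 1 of SAMPLE 2 arises because both had their highest value there, a ratio of 1 divided by the same normalization factor of 0.895.

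**Figure D1:**
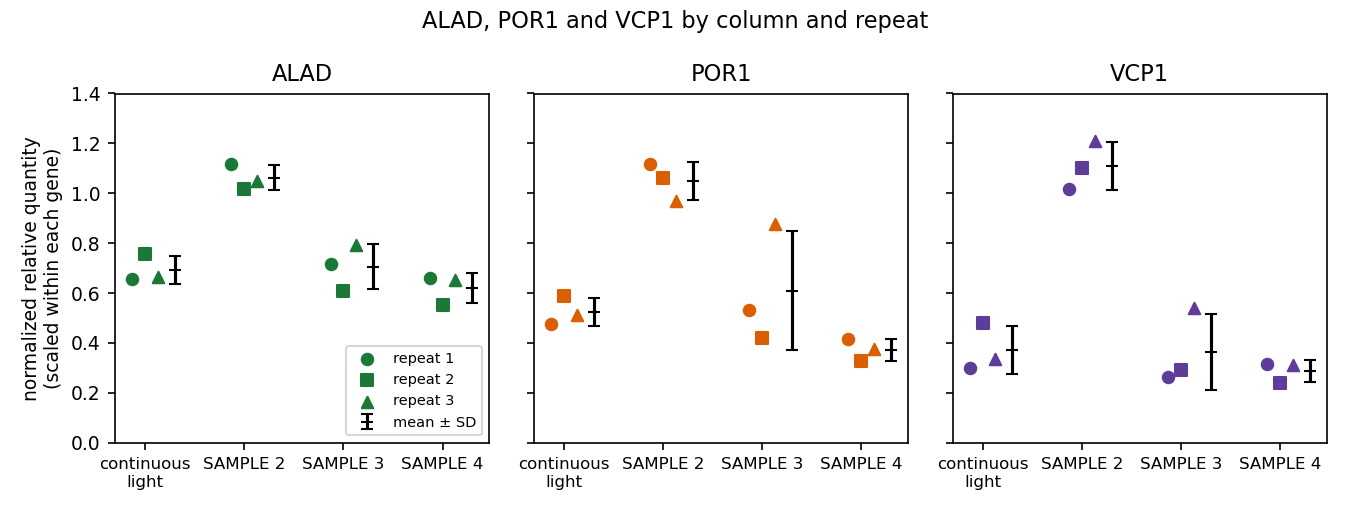
Normalized relative quantity (y axis, scaled within each gene) of ALAD, POR1 and VCP1 in continuous light and in the flashing-light columns (x axis); symbols are the 3 repeats and black bars the mean ± SD. For each gene the SAMPLE 2 repeats lie above all others, and repeat 3 of SAMPLE 3 stands apart for POR1 (0.876) and VCP1 (0.540). SAMPLE 2 lay wholly above the control for 41.7% of targets. Before normalization SAMPLE 3 overlapped SAMPLE 2 for ALAD and POR1.

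Before normalization the separation was not the same for all 3 genes. The unnormalized ratio of VCP1 was 0.911, 1 and 0.986 in SAMPLE 2 and at most 0.521 in every other repeat. For POR1 the SAMPLE 2 values of 1, 0.965 and 0.787 overlapped repeat 3 of SAMPLE 3, at 0.845. For ALAD, the SAMPLE 2 values of 1, 0.925 and 0.855 overlapped repeat 1 of SAMPLE 3, at 0.874. The lower POR1 of SAMPLE 4 also overlapped the control before normalization, with 0.488, 0.485 and 0.284 against 0.439, 0.603 and 0.523. The SAMPLE 2 values of both genes lay above all control and SAMPLE 4 repeats before normalization too, with control maxima of 0.603 for POR1 and 0.774 for ALAD. The normalization factor ran from 0.757 to 1.49, both extremes being repeats of SAMPLE 4.

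The unnormalized ratios could be written as steps of 0.01 cycle with an inferred amplification base of 2.04 per cycle for ALAD, 2.02 for POR1 and 2.05 for VCP1, beside a median of 2.04 over the targets. In these units, VCP1 crossed its threshold within 0.13 cycles of its earliest repeat in SAMPLE 2. In continuous light it came 0.99 to 1.8 cycles later than that repeat. For POR1 the control repeats came 0.72 to 1.17 cycles after the earliest, and for ALAD 0.36 to 0.71. The ALAD difference is thus under 1 cycle throughout, up to 0.99 in SAMPLE 4, and the absolute cycle numbers are unknown.

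Against continuous light, the change in SAMPLE 2 was 1.61 ± 0.38 for VCP1, 1.00 ± 0.19 for POR1 and 0.62 ± 0.13 for ALAD on the log2 scale. VCP1 and POR1 passed, 2 of the 3 genes, where 13.9% of all 36 targets passed (5 genes, 3 of them among the 33 others). VDE2, a violaxanthin de-epoxidase, HAD, a dehydratase of fatty acid elongation, and nitrate reductase NR were these others, at 1.26 ± 0.11, 1.02 ± 0.17 and −2.03 ± 0.58. ALAD exceeded 2 propagated SDs without reaching 2-fold, and 38.9% of targets exceeded 2 propagated SDs. Non-overlapping higher repeats, which all 3 genes had, were found for 41.7% of targets. The median was 1.00 over the 3 genes and 0.20 over all targets, and VCP1 ranked 1st, POR1 4th and ALAD 8th from the highest of 36.

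POR1 stood on the 2-fold limit. Its changes within repeat numbers were 1.23, 0.85 and 0.92. It was at 0.89 ± 0.17 without repeat 1 and passed in 11 of 19 alternative calculations, whereas VCP1 passed in all 19 and ALAD in 2. These are not independent. Among them the deposited folds and the differences within repeat numbers are the same calculation and keep the main value, with POR1 at 1.00 ± 0.20. In the authors' deposited fold table, test over control in SAMPLE 2 was 3.41, 2.30 and 3.62 for VCP1, 2.34, 1.81 and 1.90 for POR1 and 1.71, 1.35 and 1.58 for ALAD. Every repeat of each gene was above 1 in that column. These folds are the changes within repeat numbers on a linear scale and are not separate evidence.

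In SAMPLE 3 the changes against continuous light were −0.07 ± 0.66 for VCP1, 0.15 ± 0.56 for POR1 and 0.02 ± 0.22 for ALAD. None of the 3 passed, beside 2.78% of targets, and the repeats overlapped the control for each gene. In repeat 3, VCP1 lay 0.64 and POR1 0.59 above their means in SAMPLE 3 on the log2 scale, and ALAD 0.17. On the other side, VCP1 lay 0.39 below in repeat 1, and POR1 0.47 and ALAD 0.20 below in repeat 2. Over all targets repeat 3 was 0.21 above the column mean at the median. It was the highest of the 3 repeats for 28 of 36. VCP1 and POR1 had the largest and second largest repeat SD of the 36 targets in this column, at 0.56 and 0.54 beside a median of 0.22. Without repeat 3 the changes were −0.45 ± 0.50 for VCP1 and −0.16 ± 0.33 for POR1. Without repeat 2 they were 0.26 ± 0.74 and 0.47 ± 0.51, and without repeat 1 −0.01 ± 0.73 and 0.15 ± 0.77. A change below 2-fold or within 2 propagated SDs could not have passed.

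In SAMPLE 4 the changes were −0.50 ± 0.23 for POR1, −0.35 ± 0.42 for VCP1 and −0.16 ± 0.18 for ALAD. None of them passed, nor did any other target (0%). POR1 was the only gene of the 3 beyond 2 propagated SDs, as 5.56% of targets were, and its repeats all lay below the control, as for 16.7% of targets. From the lowest, POR1 ranked 2nd, VCP1 3rd and ALAD 12th of 36. POR1 stayed beyond 2 propagated SDs in 6 of 19 alternative calculations, and its sign was negative in each of them. Without repeat 2 it was at −0.32, and without repeat 1 at −0.65.

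**Figure D2:**
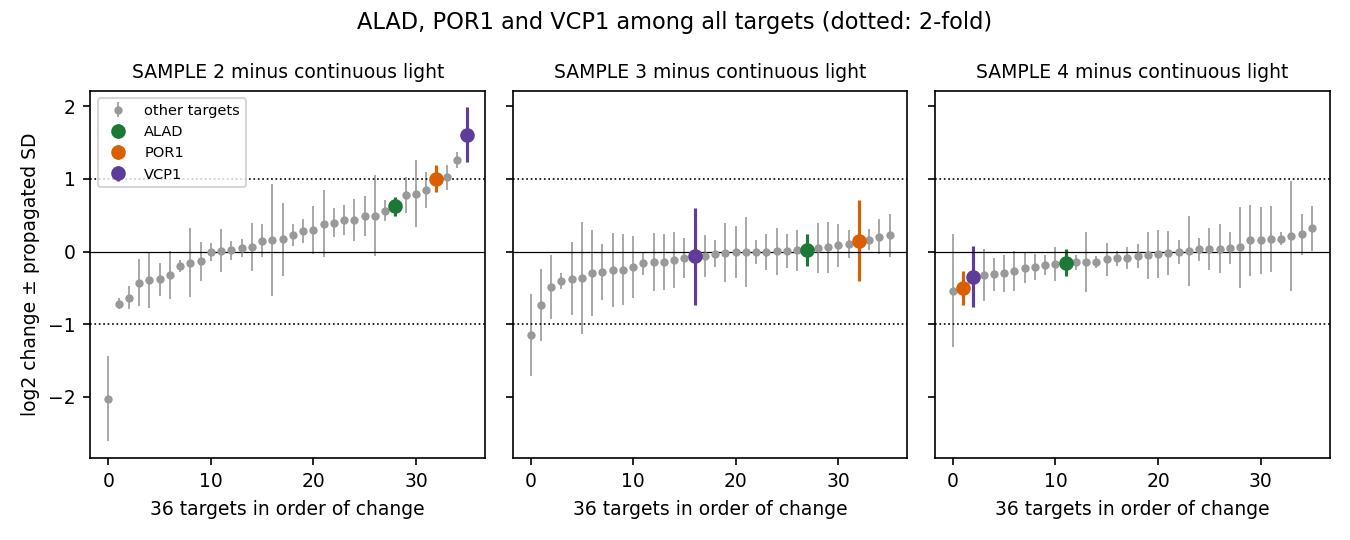
Log2 change against continuous light (y axis, bars are the propagated SD) of all 36 targets in order of their change (x axis), for each flashing-light column; dotted lines mark 2-fold. VCP1 is the highest target and POR1 the fourth in SAMPLE 2, while in SAMPLE 4 POR1 (−0.50) and VCP1 (−0.35) are near the low end and inside the dotted lines.

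Between the flashing-light columns, the genes were lower in SAMPLE 3 and SAMPLE 4 than in SAMPLE 2. These comparisons share the SAMPLE 2 repeats with those above. In SAMPLE 3 against SAMPLE 2, VCP1 fell by 1.68 ± 0.57 and passed, POR1 was at −0.85 ± 0.55 and ALAD at −0.60 ± 0.20. Of all targets 11.1% passed, 41.7% were beyond 2 propagated SDs as VCP1 and ALAD were, and 38.9% had repeats wholly below SAMPLE 2, as all 3 genes had. POR1 passed in 1 of 18 alternatives, without repeat 3, at −1.20 ± 0.25. It was at −0.74 ± 0.76 without repeat 1 and −0.61 ± 0.53 without repeat 2, and did not pass in either.

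In SAMPLE 4 against SAMPLE 2, VCP1 fell by 1.95 ± 0.26, or 3.87-fold, and POR1 fell by 1.5 ± 0.20, or 2.83-fold. ALAD was at −0.78 ± 0.16. With UFP as the only reference POR1 no longer passed, at −0.69, and ALAD was at 0.03. ALAD passed in 4 of 18 alternatives, at −1.08 with TEF1, −2.66 with BT, −1.23 with GAPDH and −1.05 with the 7 reference genes with an r prefix. Of all targets 19.4% passed, 55.6% were beyond 2 propagated SDs and 52.8% had repeats wholly below SAMPLE 2, which all 3 genes had. VCP1 and POR1 were the lowest and second lowest of the 36 changes. Besides them, VDE2 at −1.32, HAD at −1.02, the phosphatidic acid phosphatase PAP2 at −1.10 and the glycerol-3-phosphate dehydrogenase GPD1 at −1.07 fell and NR rose by 1.49.

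SAMPLE 4 and SAMPLE 3 did not differ by the rule for any target (0%). POR1 was at −0.65 ± 0.57, VCP1 at −0.28 ± 0.60 and ALAD at −0.18 ± 0.24. Only POR1 of the 3 had repeats wholly below SAMPLE 3, as 16.7% of targets had. By level, the columns ran SAMPLE 2, SAMPLE 3, control, SAMPLE 4 for ALAD and POR1, and SAMPLE 2, control, SAMPLE 3, SAMPLE 4 for VCP1. Apart from SAMPLE 2 for ALAD and VCP1, and SAMPLE 4 below the control for POR1, neighbours in these orders differed by less than 2 propagated SDs. For POR1 the step from SAMPLE 2 to SAMPLE 3 was 0.85 ± 0.55.

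The 3 genes did not move by equal amounts. Their ratios to each other hold no reference gene, so they do not depend on the normalization. In SAMPLE 2 the ratio of VCP1 to ALAD was 1.98-fold that of the control, a log2 difference of 0.99 ± 0.30, with repeats at 0.79, 1.04 and 1.13 against −0.21, 0.27 and −0.06. The ratio of POR1 to ALAD was 0.38 ± 0.11 higher, with repeats at 0.40, 0.46 and 0.28 against −0.06, 0.04 and 0.02. VCP1 to POR1 was 0.61 ± 0.31 higher, just within 2 propagated SDs, although its repeats did not overlap. It was beyond them in 4 of 6 alternatives, among them the differences within repeat numbers (0.61 ± 0.30). In this column 43.3% of the 630 ratios of 2 targets exceeded 2 propagated SDs.

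In SAMPLE 4 the ratio of POR1 to ALAD was 0.789-fold that of the control, a log2 difference of −0.34 ± 0.09. Its repeats were −0.27, −0.36 and −0.40, all below the control, and it exceeded 2 propagated SDs under each of the 6 alternatives that apply to a ratio, with values from −0.41 to −0.30. Here 2.22% of all ratios, 14 of 630, did so. Of the ratios of POR1 to the 35 other targets, 6 were lower by that measure and 0 higher, and for VCP1 the counts were 0 and 0. VCP1 to ALAD was at −0.19 ± 0.26 and VCP1 to POR1 at 0.15 ± 0.23, both overlapping the control.

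In SAMPLE 3 the ratios were at −0.22 ± 0.32 for VCP1 to POR1, −0.09 ± 0.51 for VCP1 to ALAD and 0.13 ± 0.37 for POR1 to ALAD, and each overlapped the control. Against SAMPLE 2, VCP1 in SAMPLE 3 was lower relative to POR1 by −0.83 ± 0.34 and relative to ALAD by −1.08 ± 0.48, where 38.9% of all ratios exceeded 2 propagated SDs. Each fell within 2 propagated SDs when 1 repeat was left out, VCP1 to POR1 at −0.73 ± 0.37 without repeat 3 and VCP1 to ALAD at −1.03 ± 0.67 without repeat 2. In SAMPLE 4 against SAMPLE 2, POR1 to ALAD was at −0.72 ± 0.12 and VCP1 to ALAD at −1.18 ± 0.19, where 62.7% of ratios did. VCP1 was lower relative to 34 of the 35 other targets in that comparison, and POR1 relative to 31.

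**Figure D3:**
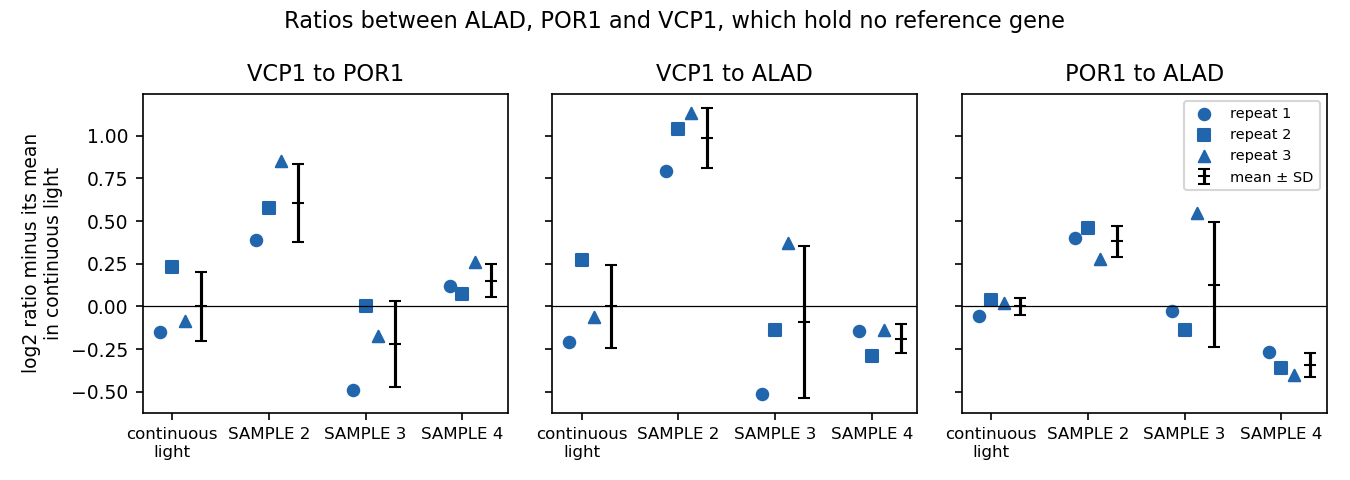
Log2 ratio of the unnormalized values of each pair of genes, minus its mean in continuous light (y axis), by column (x axis); symbols are the 3 repeats and black bars the mean ± SD. In SAMPLE 2 the VCP1 to ALAD ratio is 0.99 above the control, and the POR1 to ALAD ratio lies above the control in SAMPLE 2 and below it in SAMPLE 4 (−0.34).

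The tables hold 4 other pigment genes. VDE1 and VDE2 are violaxanthin de-epoxidases, which convert violaxanthin to zeaxanthin in strong light, ZE is listed as a zeaxanthin de-epoxidase, and LCYB, lycopene beta cyclase, makes the ring ends of beta-carotene. In SAMPLE 2, 1 of the 4 passed upward, VDE2, and 0 passed downward, where 13.9% of all targets passed. The median change of the 4 was 0.29. Repeats lay wholly above the control for 3 of the 4, VDE2, ZE and LCYB, as for 41.7% of all targets. ZE stood at 0.28 ± 0.17, LCYB at 0.23 ± 0.15 and VDE1 at 0.30 ± 0.33. VDE2 had repeats of 1.04, 1.10 and 1.15 against 0.430, 0.477 and 0.470 in the control and its repeats did not overlap the control. In SAMPLE 3 and SAMPLE 4 none of the 4 passed, with medians of 0.02 and −0.19.

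Likeness to other targets was measured as the root mean square difference of the 3 log2 changes against continuous light, which share the control repeats. For VCP1 the nearest of 35 targets were VDE2 at 0.27, POR1 at 0.38 and HAD at 0.40, with a median of 0.85 over all. For POR1 they were PAP2 at 0.17, GPD1 at 0.19 and VDE2 at 0.29, with a median of 0.57. ALAD was nearest to the diacylglycerol acyltransferase DGAT2 at 0.093, then to the glycerol-3-phosphate acyltransferase GPAT and PAP2, both at 0.14, with a median of 0.33. ALAD was the 5th nearest target of POR1, and POR1 the 16th of ALAD. The distances carry no error. Those to the 3 nearest targets are smaller than the propagated SDs in SAMPLE 3, 0.66 for VCP1, 0.56 for POR1 and 0.22 for ALAD. The order of near targets is therefore not resolved.

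**Figure D4:**
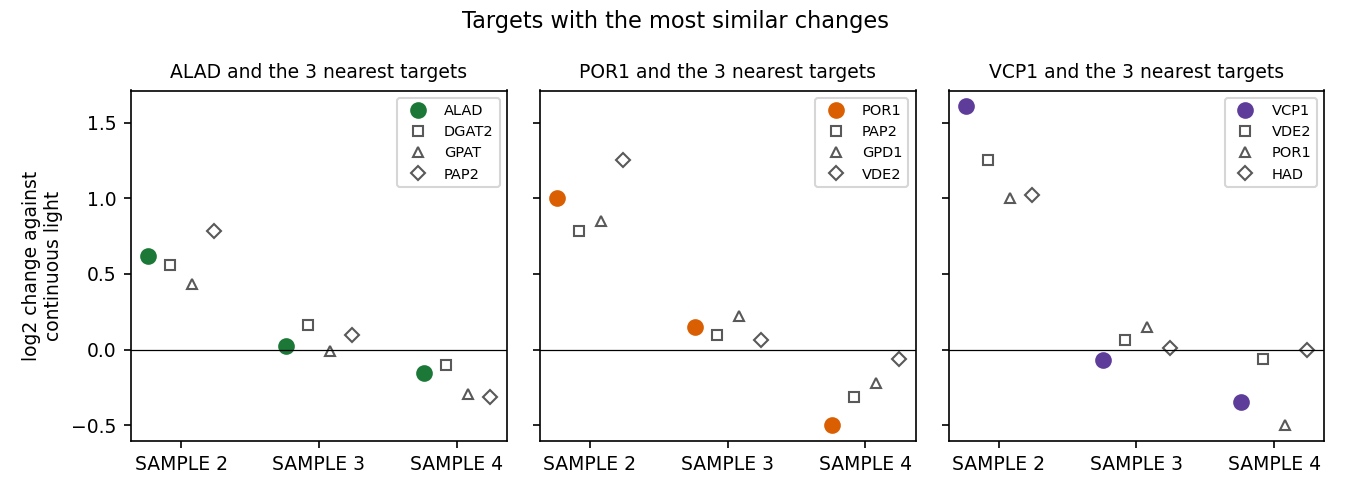
Log2 change against continuous light (y axis) in each flashing-light column (x axis) for ALAD, POR1 and VCP1 (filled) and the 3 targets nearest to each (open symbols). In SAMPLE 2 the filled and open points all lie above 0, and VCP1 lies above its nearest targets.

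The choice of reference shifted all 3 genes together. The normalization used CYP and PAP1. In SAMPLE 2 the other reference genes were at 0.02 ± 0.23 for actin ACT, −0.30 ± 0.45 for TEF1, −0.32 ± 0.46 for AT1, −0.44 ± 0.23 for GAPDH, 0.60 ± 0.32 for UFP and −1.61 ± 0.81 for the beta tubulin BT. Over 11 choices of reference, the change in SAMPLE 2 ran from 1.01 to 3.21 for VCP1, which passed in 11, and from 0.40 to 2.61 for POR1, which passed in 6. It ran from 0.02 to 2.23 for ALAD, which passed in 2. The lowest values are with UFP alone, where ALAD stood level with the control at 0.02 ± 0.21, and the highest with BT alone. In SAMPLE 4 POR1 was negative with all 11, from −0.77 to −0.29, but beyond 2 propagated SDs with 2 of them and passing with 0. In SAMPLE 3 VCP1 was negative with 3. The quantities are relative to other transcripts, so RNA per cell and cell number cannot be told apart from them.

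**Figure D5:**
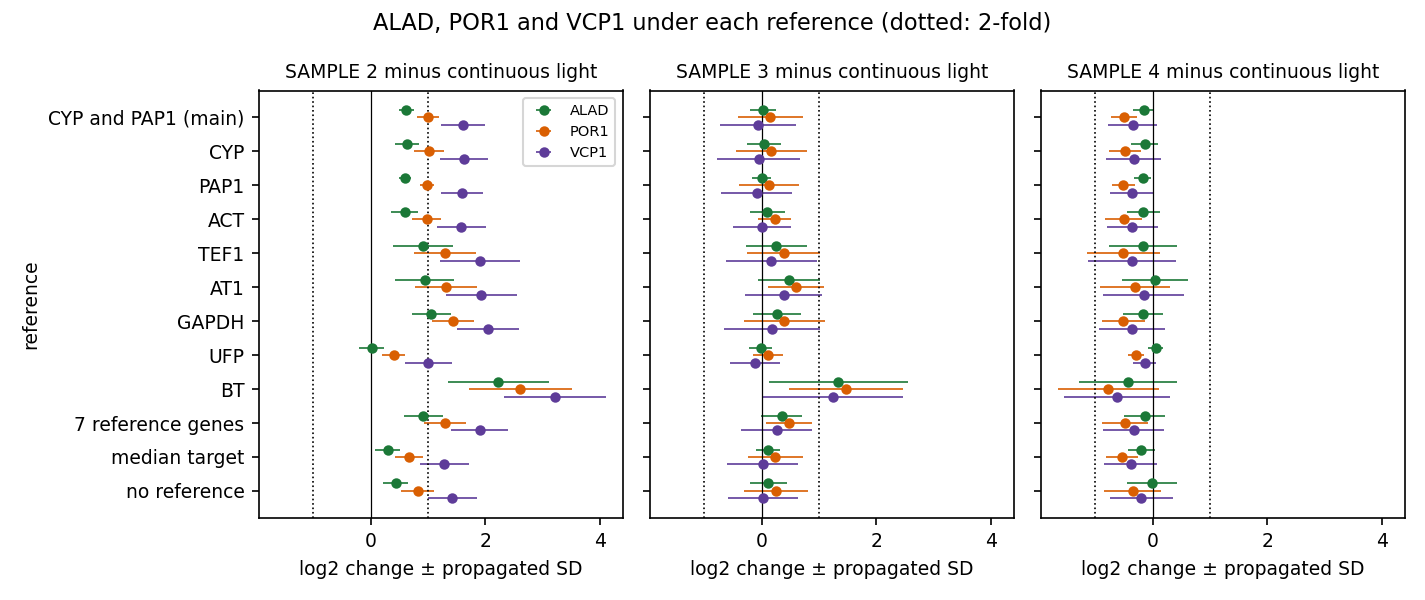
Log2 change against continuous light (x axis, bars are the propagated SD) of ALAD, POR1 and VCP1 in each flashing-light column under each choice of reference (y axis); dotted lines mark 2-fold. In SAMPLE 2 VCP1 stays at or above 1.01 throughout, while ALAD runs from 0.02 with UFP to 2.23 with BT.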

How the data were processed

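The authors deposited 3 tables of 132 rows, each gene with 3 repeats. In the first, a linear ratio per gene was deposited relative to its highest of 12 values; in the second the authors divided that ratio by housekeeping genes, per the file headers; the third holds the deposited fold, test over control, per the file headers. How cycles were turned into ratios is not stated by them. The factor was recomputed as the geometric mean of CYP and PAP1, scaled to a geometric mean of 1, and held within 0.1% for 43 genes; the deposited MCT row equalled the factor and MCT was recomputed. Rows were joined by order, since 4 identifiers of the first table were spelled otherwise, and the recomputed factor checked this. SAMPLE 1 is the divisor of the fold table and so the control. Values were averaged as log2 over repeats in Python 3.11.15 with NumPy 2.4.6, and the calculation was tested on simulated data. Reference genes are those with an r before the identifier, and PAP1, which lacks it and was counted because the factor uses it. The symbol PAP1 is in series with PAP2 and PAP3, targets listed as phosphatidic acid phosphatases. The genes and lists were chosen with earlier results of these data known. The named genes are the 3 genes, 4 other pigment genes, the 3 targets nearest to each by root mean square difference, and genes passing beside them. Alternatives were other references, averaging, amplification base, repeats left out, pairing and thresholds. With no cycle numbers, depth is unknown. No sequences are printed, and locus identifiers are not reported here.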

Additional observations from a re-analysis of the deposited data

Results flagged for a closer look

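POR1 lay on opposite sides of continuous light in 2 flashing-light columns. Within each repeat number it was above continuous light in all 3 repeats of SAMPLE 2 and below it in all 3 of SAMPLE 4, and the log2 change in SAMPLE 2 minus that in SAMPLE 4 was 1.5. The difference was not tested, since each condition had 1 sample, and the control repeats are shared. It was the only case among 9 checks over the 3 genes, and 5 of the 36 targets (13.9%), ZE among them, had this pattern in these columns. POR1 did not pass in SAMPLE 4, at −0.50 ± 0.23, and was beyond 2 propagated SDs in 6 of 19 alternatives. Before normalization the POR1 repeats of SAMPLE 4 overlapped the control. The POR1 to ALAD ratio, which holds no reference gene but reuses the same POR1 values, lay on the same sides, at 0.38 and −0.34. Relative to VCP1, POR1 was on 1 side only, with VCP1 to POR1 at 0.61 ± 0.31 and 0.15 ± 0.23. Of all ratios of 2 targets, 43.3% exceeded 2 propagated SDs in SAMPLE 2 and 2.22% in SAMPLE 4.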

How the results depend on the processing

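Over 21 alternatives, 487 of 564 values kept within their error (counts within 1.5 times), 77 moved further, and 0 values that passed changed sign. The tally does not measure stability. The deposited folds and the differences within repeat numbers hold the main log2 changes by construction and could not move. By the 1.5 limit a count of 3 for a main 2 was kept, while a count of 1 had moved. Some values that did not pass changed sign, among them ALAD in SAMPLE 4 against SAMPLE 2, at 0.03 with UFP, and VCP1 in SAMPLE 3, negative under 10 of 19. The cause was not tested beyond what each setting fixes, and the cycle depth is unknown. Settings name the only reference unless stated, and values are log2 changes against continuous light. In SAMPLE 2, ALAD was at 0.92 with TEF1, 0.94 with AT1, 0.022 with UFP, 2.23 with BT, 1.06 with GAPDH, 0.91 with the 7 genes with an r prefix, 0.30 centred on the median target and 0.44 with no reference. POR1 was at 1.30 with TEF1, 1.32 with AT1, 0.40 with UFP, 2.61 with BT, 1.44 with GAPDH, 1.30 with the 7 genes and 0.68 centred. VCP1 was at 1.01 with UFP, 3.21 with BT and 2.05 with GAPDH. In SAMPLE 3, ALAD was at 0.26 with TEF1, 0.48 with AT1, 0.27 with GAPDH, 0.35 with the 7 genes and 1.34 with BT, where POR1 was at 1.46 and VCP1 at 1.24. In SAMPLE 4, ALAD was at 0.039 with AT1, 0.051 with UFP and −0.43 with BT, where POR1 was at −0.77. Of the 3 genes, 1 passed in SAMPLE 2 (main 2) with PAP1, ACT or UFP, no reference, centring, means of linear values, amplification base 2 and a 3-fold limit, and 1 to 2 with a repeat left out. All 3 passed there with BT, with GAPDH and at 1.5-fold. In SAMPLE 3 against SAMPLE 2 (main 1) 2 passed at 1.5-fold and 1 to 2 with a repeat left out. In SAMPLE 4 against SAMPLE 2 (main 2) 1 passed with UFP or at 3-fold, and 3 with TEF1, BT, GAPDH, the 7 genes or at 1.5-fold. Against SAMPLE 3 (main 0) 1 passed in SAMPLE 4 with BT. Differences within repeat numbers, a replicate block, left every count of genes as it was, with VCP1 in SAMPLE 2 at 1.61 ± 0.36. The block took POR1 in SAMPLE 4 inside 2 SDs, at −0.50 ± 0.33. It took the VCP1 to POR1 ratio past 2 SDs in SAMPLE 2. That ratio also went past them in SAMPLE 4 against SAMPLE 2, at −0.45 ± 0.17. ALAD in SAMPLE 4 against SAMPLE 3 did so too, at −0.180 ± 0.085. Whether the numbers pair the samples is not given.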
